A study of Scyliorhinus canicula with 3 samples.

Results

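The genes described here are those that copy DNA and divide the nucleus: 76 of the 29017 annotated features, taken by symbol (mcm, orc, cdc, cyclin A, B and E, cenp, e2f, aurk, bub, plk, ncap, top2, pcna, gins and rfc followed by their letters or numbers) with at least 10 UMIs (unique molecular identifiers, one per captured RNA molecule) in nuclei. The rule used symbols and detection, not the level in any cell class. By role, 57 of the 76 have a direct part in DNA replication or mitosis and are called core members below. The other 19 are 4 subunits of the anaphase promoting complex and 15 genes that share a prefix but work elsewhere, such as cdc42, a small GTPase of the cytoskeleton. The aurk prefix matched aurkaip1 alone, a gene of the mitochondrial ribosome, and the aurora kinases were not analysed here.

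The data are single-nucleus RNA profiles of the retina of the small-spotted catshark, Scyliorhinus canicula, from 3 juvenile females of 11.0, 10.5 and 11.1 cm total length, called libraries 1, 2 and 3. All 3 animals belong to a single condition, and each gave 1 retina and 1 library, so the comparisons below are between cell classes within an animal. Within the study's limits 6053, 4425 and 10154 nuclei were kept, with medians of 3400, 2194 and 2032 UMIs, and pairs of libraries shared 1, 16 and 15 barcodes. After removal of 713 called doublets and of 2476 nuclei in 3 clusters with over 80% of nuclei from 1 library, 17443 nuclei formed 25 clusters, 22 of which were named from marker lists.

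Before a cell divides, the origin recognition complex (orc genes) and cdc6 load the ring-shaped MCM helicase onto DNA, the cdc45-MCM-GINS assembly unwinds it, and the sliding clamp PCNA, placed by replication factor C, holds the polymerases on the template. Topoisomerase II and the condensins then untangle and compact the chromosomes, centromere proteins build the attachment to the spindle, and the bub genes, plk1 and cdc20 control the passage through mitosis. In teleost fishes dividing progenitors persist at the retinal margin after hatching and Müller glia can re-enter the cycle after injury, whereas mature rods and bipolar cells no longer divide.

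The values below are from 4 classes. The RPC-like nuclei (retinal progenitor cells) numbered 139, 51 and 178 in libraries 1 to 3, the MG-like nuclei (Müller glia) 120, 304 and 448, the PR precursor-like nuclei (photoreceptor precursors) 1546, 1071 and 1045, and the BC-like nuclei (bipolar cells) 250, 295 and 816. The 76 members were among 196 cell cycle features left out of the clustering, so that no member defined a class, although other genes that vary with the cycle may have remained among them. The RPC-like cluster had 11 of the 16 counted genes of its marker list raised, with a mean log2 ratio of 1.51 over the list, and a fibroblast or pericyte list came next at 1.22 with 2 genes raised. Among the raised genes was prss56, a serine protease, with 239, 928 and 411 CPM (UMIs of a gene scaled to a total of 1000000 in each class and library) in libraries 1 to 3 against 138, 66.4 and 67.3 CPM in MG-like nuclei. Rod-like nuclei and near-empty droplets, which carry free RNA, serve as background.

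Core members were concentrated in RPC-like nuclei. Their summed level there was 3551 CPM in library 1, 1270 CPM in library 2 and 3287 CPM in library 3, a mean of 2703 ± 1248 CPM (SD, n = 3). The same sum was 648 ± 25.8 CPM in MG-like, 934 ± 50.0 CPM in PR precursor-like, 590 ± 50.3 CPM in BC-like and 668 ± 15.7 CPM in rod-like nuclei, and 788 ± 144 CPM in near-empty droplets. Every library therefore had its highest sum of these 5 classes in RPC-like nuclei, and the 3 RPC-like sums lay above all 12 sums of the other classes. Relative to rod-like nuclei of the same library the ratio was 5.19, 1.91 and 5.03 for RPC-like, 0.903, 1.00 and 1.01 for MG-like, 1.29, 1.47 and 1.44 for PR precursor-like and 0.778, 0.920 and 0.958 for BC-like nuclei. The 19 other members did not show this contrast, with 1489 ± 104 CPM in RPC-like, 1317 ± 84.4 CPM in MG-like, 1547 ± 190 CPM in PR precursor-like and 1106 ± 21.1 CPM in BC-like nuclei.

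**Figure D1:**
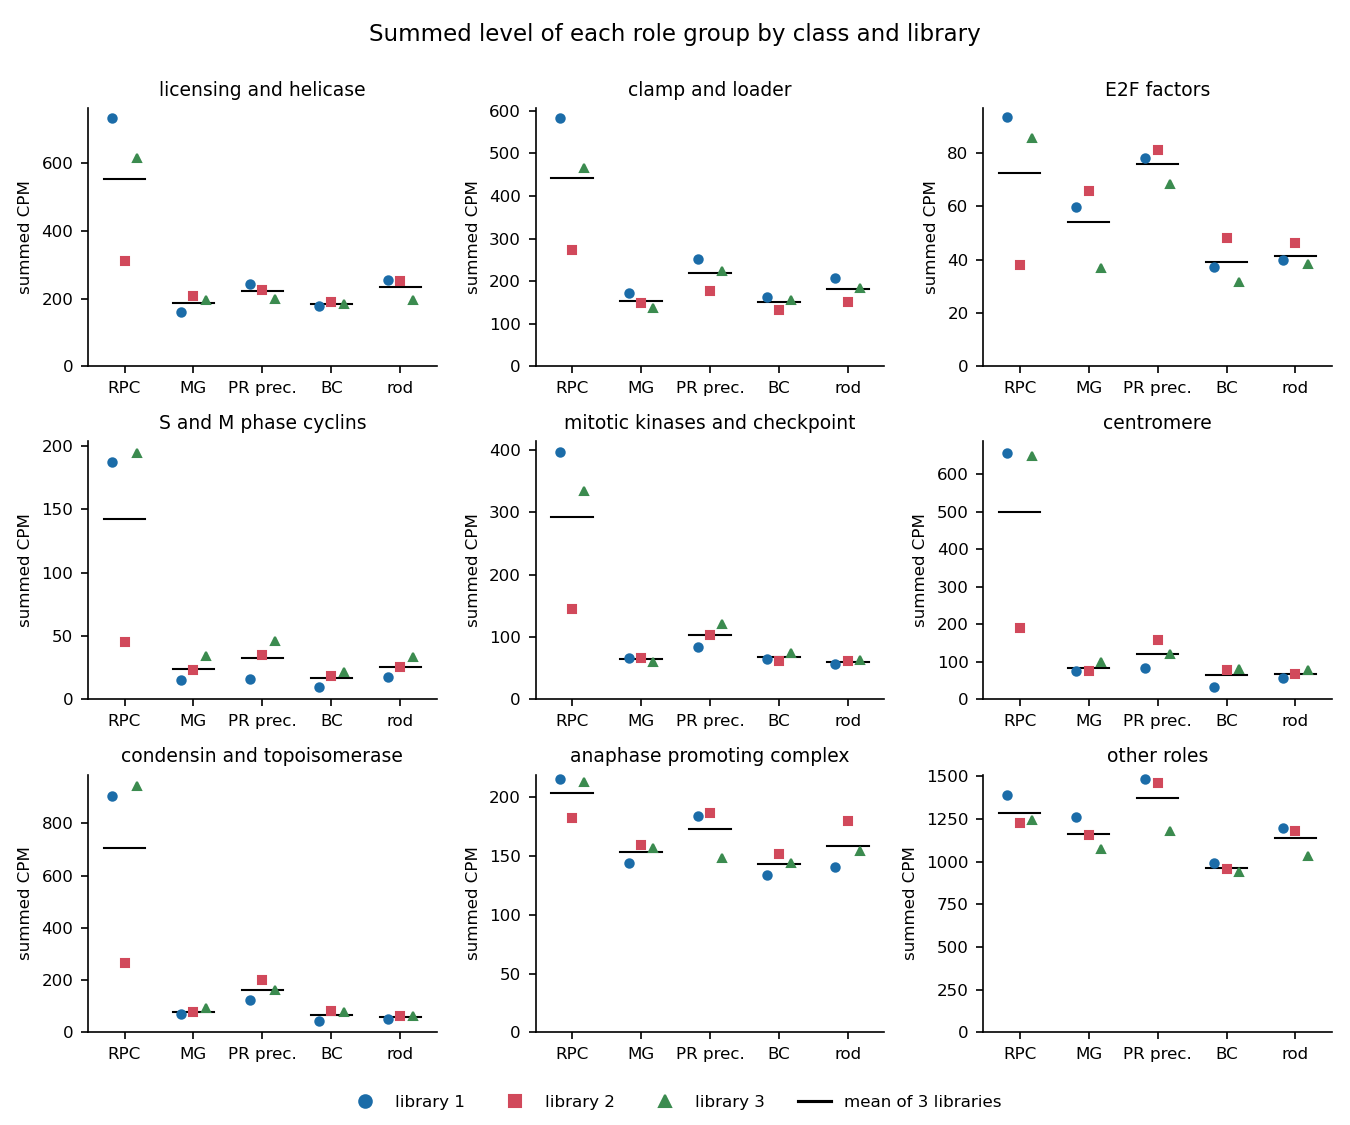
Summed level of each role group in CPM (vertical axis, from 0) in RPC-like, MG-like, PR precursor-like, BC-like and rod-like nuclei (horizontal axis), with 1 point per library and a line at the mean of 3 libraries. In the condensin and topoisomerase panel the RPC-like points sit at 904, 266 and 942 CPM, while in the panel of genes with other roles the RPC-like points at 1391, 1225 and 1241 CPM overlap with the PR precursor-like points at 1482, 1460 and 1179 CPM.

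Library 2 stood apart among the RPC-like nuclei. Its sum of 1270 CPM rested on 167 UMIs, with an exact Poisson interval at 95% of 1085 to 1478 CPM, against 3422 to 3683 CPM in library 1 and 3134 to 3446 CPM in library 3 (these intervals cover counting error only). Of the 57 core members, 46 were lower in library 2 than in both other libraries and 2 were higher than in both. Among the 19 other members 9 were lower and 7 higher. In RPC-like nuclei 3 UMIs are worth 22.8 CPM in library 2, against 3.70 and 5.71 CPM in libraries 1 and 3. Genes of low level can thus fall to no UMI in library 2. The part of low counts in this contrast was not tested, and the share over all genes is not given here. Median depth per RPC-like nucleus was 5216, 2127 and 2073 UMIs in libraries 1 to 3. The summed UMIs of the class were 811897, 131467 and 525346, lowest in library 2. The RPC marker list was not low in library 2, at 3849 CPM against 2816 CPM in library 1 and 3044 CPM in library 3, and the MG marker list reached 548 CPM there against 221 and 318 CPM. The part of depth and of these marker levels in the lower core sum of library 2 was not tested.

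The first group by role, licensing and the helicase, has 19 members, all tested in RPC-like against all other nuclei of the same library. The test was edgeR's quasi-likelihood test on summed counts with the library as a block, and a gene was called at a Benjamini-Hochberg adjusted p under 0.05 over all genes tested and a log2 fold change of at least 1 in size. Of the 19, 13 rose, none fell, and the median log2 fold change was 1.75 against -0.08 over the 17267 genes tested, of which 7.22% were called higher and 11% lower. mcm2, a helicase subunit (chromosome 11, 7102306 to 7139769 in build sScyCan1.1), had 71.4, 0 and 40.0 CPM in RPC-like nuclei of libraries 1 to 3 against 7.14, 4.30 and 5.15 CPM elsewhere. It was high in libraries 1 and 3 and undetected among the 131467 UMIs of library 2, which allow up to 22.8 CPM at 3 counts. Its log2 fold change was 2.74 ± 0.37 (SE), with an edgeR adjusted p of 2.64e-12.

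mcm3, another subunit (chromosome 1, 310564101 to 310611084), had 57.9, 7.61 and 36.2 CPM against 4.58, 4.16 and 4.23 CPM elsewhere, higher in each of the 3 libraries. Its library 2 value was below the 22.8 CPM that 3 UMIs are worth there, so the side of that library is uncertain. cdc45, which joins the helicase to the GINS complex (chromosome 1, 70309616 to 70425844), had 44.3, 7.61 and 62.8 CPM against 2.99, 5.07 and 5.05 CPM, a log2 fold change of 3.25 ± 0.38 and an edgeR adjusted p of 9.69e-16. mcm7 (chromosome 29, 6891713 to 6922709) followed the same order, with 45.6, 7.61 and 43.8 CPM against 4.87, 3.45 and 4.12 CPM. For cdc45 and mcm7 too, the library 2 values were below 22.8 CPM. The origin recognition subunits differed among themselves. orc5 (chromosome 11, 142710957 to 142843737) rose, with 73.9, 38.0 and 51.4 CPM against 14.3, 19.5 and 14.9 CPM, and library 2 lay closer to the others than it did for the MCM genes. orc3 (chromosome 6, 59421832 to 59544070) did not pass, with 37.0, 60.9 and 51.4 CPM against 33.3, 38.5 and 28.5 CPM and an edgeR adjusted p of 0.428. mcm9 and cdc7 did not pass either, and both had their highest class mean outside RPC-like nuclei. mcm9, a relative of the helicase subunits that acts in repair, was highest in GABAergic amacrine-like nuclei with 25.8, 24.4 and 16.4 CPM. cdc7, the kinase that fires origins, was highest in rod-like nuclei with 73.9, 58.7 and 56.1 CPM, which overlap with the 46.8, 30.4 and 59.0 CPM of RPC-like nuclei.

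Of the 6 clamp and loader genes, 4 rose in RPC-like nuclei and none fell. pcna, the sliding clamp (chromosome 26, 19238474 to 19246201), had 139, 30.4 and 131 CPM in RPC-like nuclei of libraries 1 to 3 against 19.2, 17.3 and 21.7 CPM elsewhere. Libraries 1 and 3 were far above every background value and library 2 was above them by less. The library 2 value is near the 22.8 CPM that 3 UMIs are worth there, so the side of that library is uncertain. The log2 fold change was 2.30 ± 0.25, with an edgeR adjusted p of 6.32e-18. rfc1, the large subunit of the clamp loader (chromosome 3, 134914001 to 135001725), had 149, 137 and 105 CPM against 96.4, 64.3 and 66.5 CPM, and missed the threshold with an edgeR adjusted p of 0.0513. Between the 2 E2F factors, regulators of S-phase genes, e2f4 (chromosome 9, 82759311 to 82804380) rose with 30.8, 15.2 and 30.5 CPM against 8.35, 11.6 and 11.5 CPM. Its library 2 value was below the 22.8 CPM of 3 UMIs there. e2f6, a repressor of the family (chromosome 6, 154264357 to 154295674), had 62.8, 22.8 and 55.2 CPM against 44.6, 44.6 and 28.1 CPM and did not pass.

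Among the 5 cyclins of S and M phase, 4 were tested and 3 rose. ccna2, cyclin A (chromosome 3, 228730626 to 228754767), had 106, 22.8 and 79.95 CPM in RPC-like nuclei against 10.2, 9.09 and 15.4 CPM elsewhere. All 3 RPC-like values lay above the values of the other nuclei, with a log2 fold change of 2.55 ± 0.28 and an edgeR adjusted p of 2.06e-18. The library 2 value rests on 3 UMIs. ccne2, cyclin E (chromosome 10, 57215645 to 57252806), had 43.1, 15.2 and 53.3 CPM against 4.34, 8.88 and 6.33 CPM. Its library 2 value was below the 22.8 CPM of 3 UMIs there. ccna1, known for its part in the germ line of mammals, had no UMI in RPC-like nuclei of any library and was not tested.

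Of the 8 genes of mitotic kinases and the checkpoint, 7 were tested and 6 rose, and cdc25d had too few counts to be tested here. plk1, the kinase that drives entry into mitosis (chromosome 15, 41924258 to 41940415), had 35.7, 0 and 22.8 CPM in RPC-like nuclei against 1.54, 1.83 and 2.81 CPM elsewhere, with a log2 fold change of 3.39 ± 0.51 and an edgeR adjusted p of 3.64e-10. cdc20, which activates the anaphase promoting complex (chromosome 4, 30063526 to 30106917), had 56.7, 15.2 and 49.5 CPM against 4.44, 4.16 and 3.45 CPM, higher in each library. Its library 2 value was below the 22.8 CPM that 3 UMIs are worth there. bub1, a checkpoint kinase (chromosome 6, 31807420 to 31954077), had 64.1, 7.61 and 53.3 CPM against 3.62, 7.40 and 5.79 CPM, so that library 2, again below 22.8 CPM, was near its background. cdc25b, a phosphatase that activates cyclin-dependent kinases (chromosome 3, 25141714 to 25183386), had 73.9, 68.5 and 43.8 CPM against 13.5, 8.53 and 10.3 CPM, and library 2 was not the lowest. bub3 (chromosome 16, 34496746 to 34545339) had 86.2, 38.0 and 99.0 CPM against 36.9, 40.0 and 38.4 CPM and missed the fold threshold with a log2 fold change of 0.91.

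Of the 10 centromere genes, 8 rose in RPC-like nuclei. cenpf, a kinetochore protein of dividing cells (chromosome 1, 252790375 to 252923198), had 272, 91.3 and 259 CPM against 12.5, 25.7 and 19.9 CPM elsewhere. The 3 RPC-like values did not overlap with the others, and the log2 fold change was 3.41 ± 0.24 with an edgeR adjusted p of 2.43e-41. cenpe, a kinetochore motor (chromosome 8, 47179120 to 47366412), had 165, 22.8 and 158 CPM against 10.7, 8.38 and 10.7 CPM, with a log2 fold change of 3.44 ± 0.26. Its library 2 value rests on 3 UMIs. cenps and cenpx, partners in a complex that also serves DNA repair, were not called. mcm9, cdc7, ccna1, ccnb3, cenps, cenpx and cdc26 are named here after their values were seen, the others by a rule on level and fold change.

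All 7 genes of the condensins and topoisomerase rose in RPC-like nuclei. top2a, topoisomerase II alpha (chromosome 19, 13550739 to 13632664), had 455, 60.9 and 504 CPM against 24.6, 11.5 and 14.5 CPM elsewhere. Libraries 1 and 3 were alike and library 2 was far lower, yet still above its own background. The log2 fold change was 4.07 ± 0.26, with an edgeR adjusted p of 1.83e-52. ncaph2, a condensin II subunit (chromosome 11, 144735130 to 144783545), had 49.3, 22.8 and 24.8 CPM against 1.98, 2.04 and 2.31 CPM, and here libraries 2 and 3 were alike, although the library 2 value rests on 3 UMIs. ncapg2, also of condensin II (chromosome 5, 202606574 to 202754554), had 113, 83.7 and 133 CPM against 13.9, 18.1 and 13.1 CPM.

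**Figure D2:**
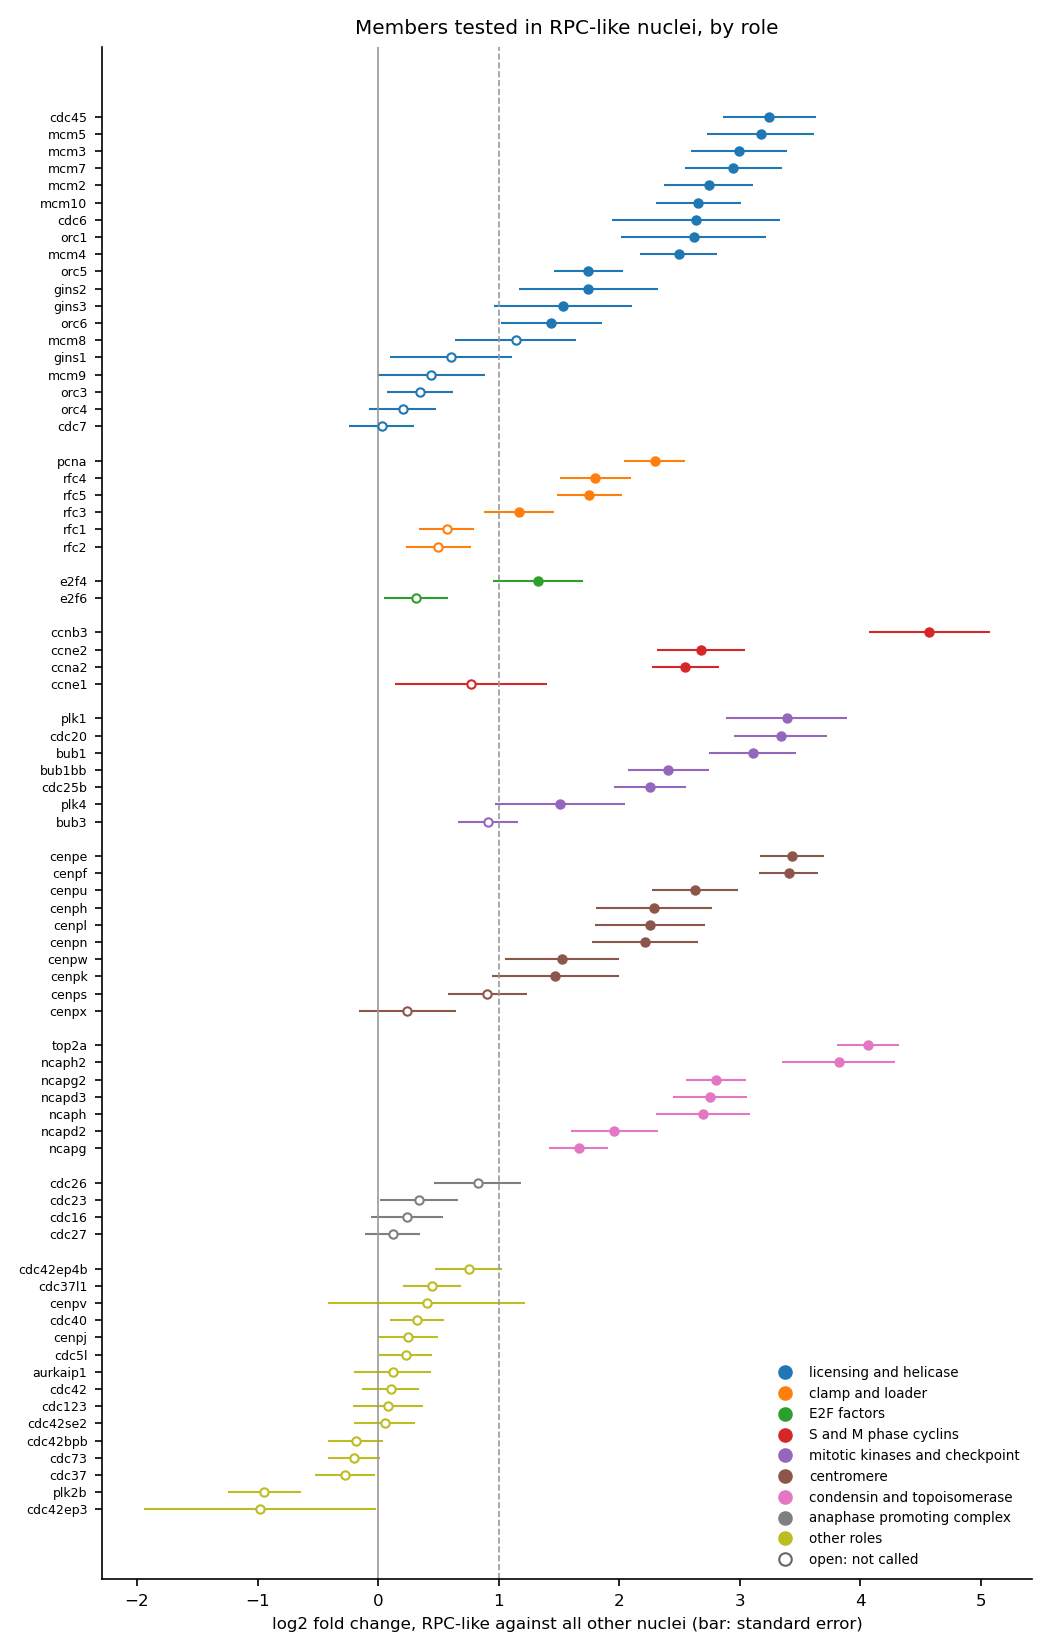
Log2 fold change of each tested member in RPC-like against all other nuclei (horizontal axis), with bars for the standard error, members on the vertical axis grouped and coloured by role, and filled points for called members. The filled points reach 4.57 for the cyclin gene ccnb3, and the anaphase promoting complex and the genes with other roles hold open points only. ccnb3 had a UMI in 10.8%, 0% and 7.87% of RPC-like nuclei of libraries 1 to 3, so it was undetected in library 2.

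Over all members, 42 of 74 tested were called higher in RPC-like nuclei, all 42 of them core members, against the 7.22% of all genes named above. None of the 74 was called lower by edgeR; at an unadjusted p under 0.05 there was 1 lower member, and DESeq2 called 35 higher and 0 lower. The median log2 fold change was 2.26 for the tested core members and 0.12 for the other members. Among the 42, 27 were higher in each of the 3 libraries, 26 had RPC-like values that did not overlap with those of the other nuclei, and 10 had no UMI in library 2. Of all 1247 genes called higher in this comparison, 80.4% were higher in each library and 73.1% did not overlap, both larger shares than among the 42, a difference that was not tested. Without library 1 the count was 29, without library 2 it was 44, and without library 3 it was 32. In this fit edgeR found no variation in spread between genes beyond a common trend (prior degrees of freedom infinite, 2 residual), so its small p-values rest on a spread shared by all genes.

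The anaphase promoting complex, which marks mitotic proteins for destruction and also acts in resting cells, had none of its 4 members called by edgeR, 1 at an unadjusted p under 0.05 and 0 by DESeq2. cdc27 (chromosome 19, 55009120 to 55181501) had 120, 98.9 and 122 CPM in RPC-like nuclei against 90.6, 107 and 90.6 CPM elsewhere, and the groups overlapped. cdc16 (chromosome 14, 158076281 to 158140775) had 34.5, 38.0 and 38.1 CPM against 28.0, 25.4 and 27.5 CPM, with an edgeR adjusted p of 0.652. None of the 15 genes with other roles was called by edgeR, 2 had an unadjusted p under 0.05 and DESeq2 called 0. cdc73, a subunit of the PAF transcription complex (chromosome 4, 99264001 to 99699381), had 389, 320 and 253 CPM in RPC-like nuclei against 371, 339 and 261 CPM. cdc40, a splicing factor (chromosome 6, 37631918 to 37835455), had 120, 190 and 160 CPM against 86.2, 143 and 105 CPM, higher in each library but not called.

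Direct contrasts between classes, fitted together over all named classes, gave the same side. Against MG-like nuclei 37 of 70 tested members were higher and 0 lower (edgeR; 2 lower at an unadjusted p under 0.05, and 42 higher and 0 lower by DESeq2), with 4.47% of the 15330 genes tested called higher and 7.85% lower. Against PR precursor-like nuclei 34 were higher and 0 lower (1 lower at an unadjusted p under 0.05, and 40 higher and 0 lower by DESeq2), with 8.4% and 6.64% of all genes. Without library 1 this count fell to 21. Against BC-like nuclei 42 were higher and 0 lower (0 lower at an unadjusted p under 0.05, and 46 higher and 0 lower by DESeq2), with 10.2% and 12.4% of all genes, and 2 of the 42 were not core members, cdc42ep4b and cdc26. These contrasts share the RPC-like libraries. top2a led each of them among members higher in all 3 libraries, with log2 fold changes of 4.51 ± 0.44 against MG-like, 3.98 ± 0.40 against PR precursor-like and 4.38 ± 0.41 against BC-like nuclei and edgeR adjusted p of 2.64e-08, 1.51e-08 and 1.52e-09. ncapg, a condensin I subunit, was the condensin gene that did not pass against PR precursor-like nuclei, with a log2 fold change of 0.77 ± 0.29 and an edgeR adjusted p of 0.0523.

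**Figure D3:**
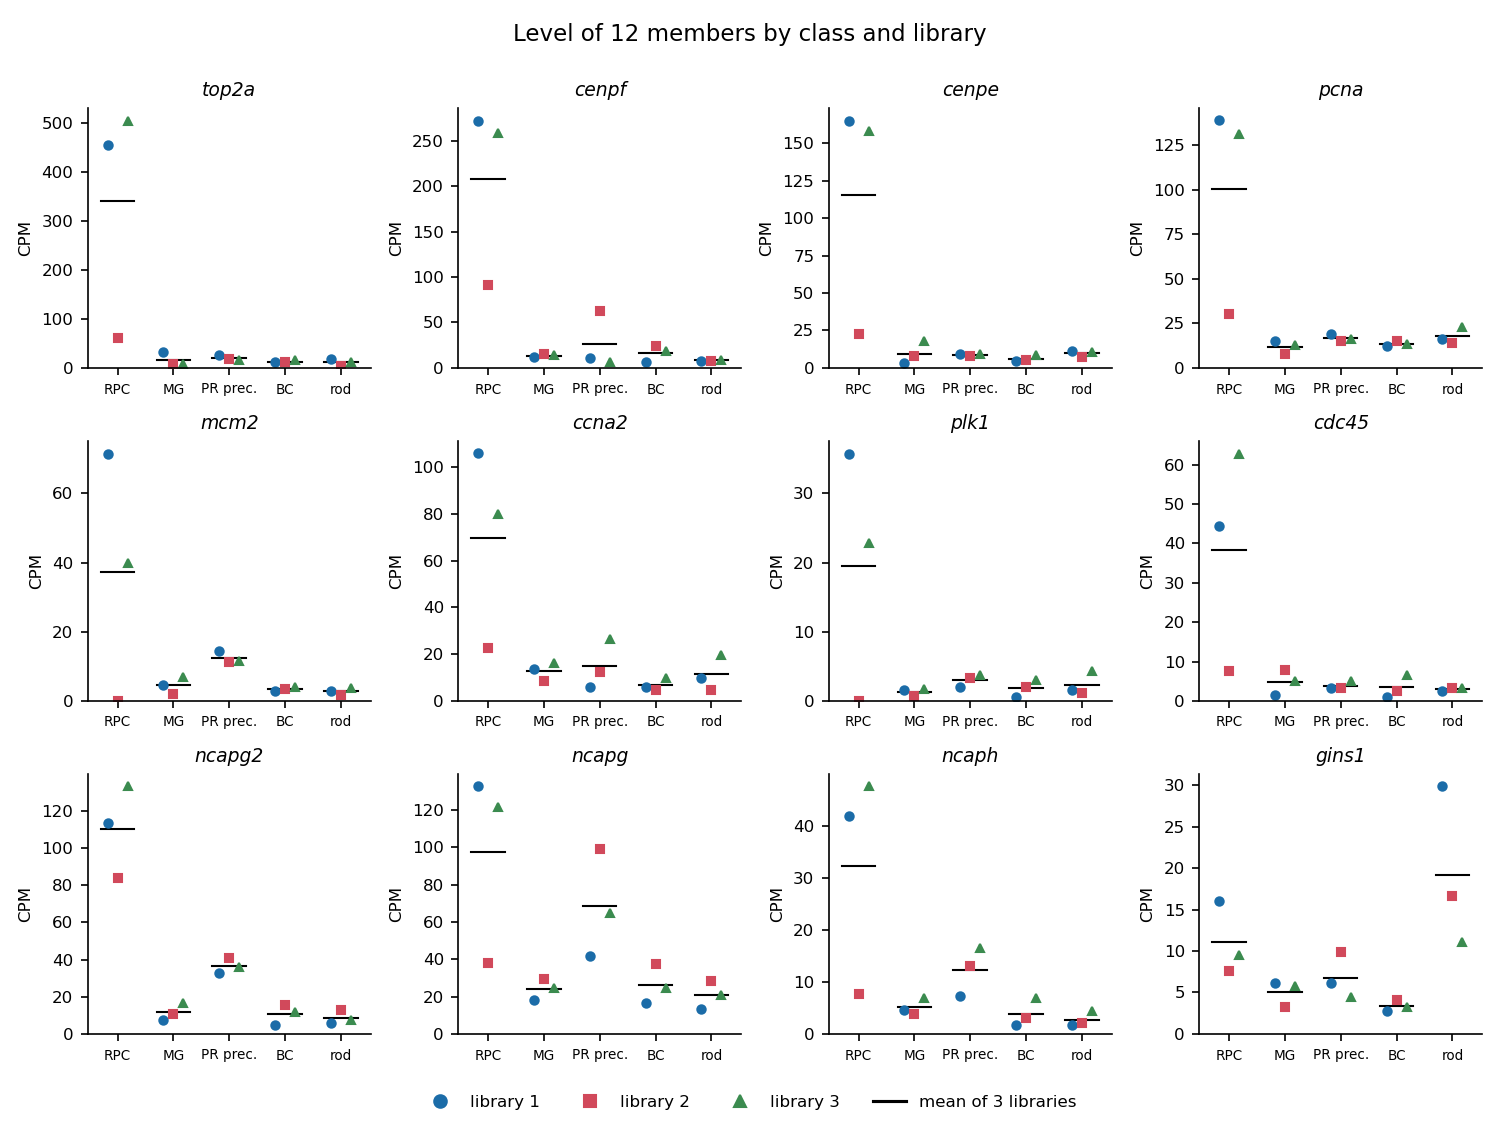
Level in CPM (vertical axis, from 0) of 12 members in 5 classes (horizontal axis), with 1 point per library and a line at the mean of 3 libraries. top2a reaches 455 and 504 CPM in RPC-like nuclei of libraries 1 and 3, ncapg and ncapg2 show raised PR precursor-like points, and gins1 is highest in rod-like nuclei.

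Counted per nucleus, core members were seen together in RPC-like nuclei. Nuclei that reached 1000 UMIs were thinned to that depth and shallower ones were left out. This kept 638 of 1071 and 634 of 1045 PR precursor-like nuclei of libraries 2 and 3. After thinning, 36 of 139 RPC-like nuclei of library 1 held UMIs of 5 or more core members (25.9%, exact binomial interval 18.9% to 34.0%), 1 of 46 in library 2 (2.17%, 0.0550% to 11.5%) and 31 of 166 in library 3 (18.7%, 13.1% to 25.5%). The share was lowest in library 2, which rests on 1 nucleus, and the intervals cover counting error only. In rod-like nuclei there were 1 of 1125, 0 of 879 and 1 of 1627 such nuclei, and in BC-like nuclei 0 of 250, 0 of 293 and 0 of 811, which allow exact upper limits of 1.47%, 1.25% and 0.454%. MG-like nuclei held 0 of 120, 0 of 295 and 2 of 427, with upper limits of 3.03%, 1.24% and 1.68%, and PR precursor-like nuclei 4 of 1546, 0 of 638 and 3 of 634. Without thinning the RPC-like shares were 76.3%, 11.8% and 48.3% and the rod-like shares 9.42%, 4.17% and 3.46%, at median depths of 5216, 2127 and 2073 UMIs against 2967, 1753 and 1552 UMIs. The unthinned shares were 15.8%, 21.7% and 17.6% in MG-like nuclei, and in BC-like nuclei 50 of 250 in library 1, 26.4% in library 2 and 23.9% in library 3. In library 2 the unthinned RPC-like share was thus below both the MG-like and the BC-like share, where the median depth was 2127 UMIs in RPC-like, 3839.5 in MG-like and 5423 in BC-like nuclei.

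Single genes gave the same picture against rod-like nuclei. At 1000 UMIs, top2a was detected in 27.3%, 6.52% and 25.3% of RPC-like nuclei of libraries 1 to 3 and in 2.13%, 0.569% and 1.05% of rod-like nuclei. For mki67-l, a proliferation marker that is not a member, the shares were 27.3%, 4.35% and 24.7% against 1.69%, 0.341% and 1.05%. In BC-like nuclei the mki67-l shares were 8.0%, 2.73% and 2.22%. In library 2 its level was 33.0 CPM in BC-like and 30.4 CPM in RPC-like nuclei. Library 2 was again low among RPC-like nuclei. Replication and mitosis members were also counted separately. With at least 2 UMIs required of 27 replication or 28 mitosis members at 1000 UMIs, RPC-like nuclei of library 1 divided into 26 with both, 30 with replication alone, 23 with mitosis alone and 60 with neither. Library 3 divided into 25, 34, 45 and 62 nuclei, and library 2 into 1, 6, 2 and 37. At this depth a nucleus below 2 UMIs of a set cannot be told from one that lacks its expression. In rod-like nuclei, 1, 2 and 2 nuclei of libraries 1 to 3 had both.

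**Figure D4:**
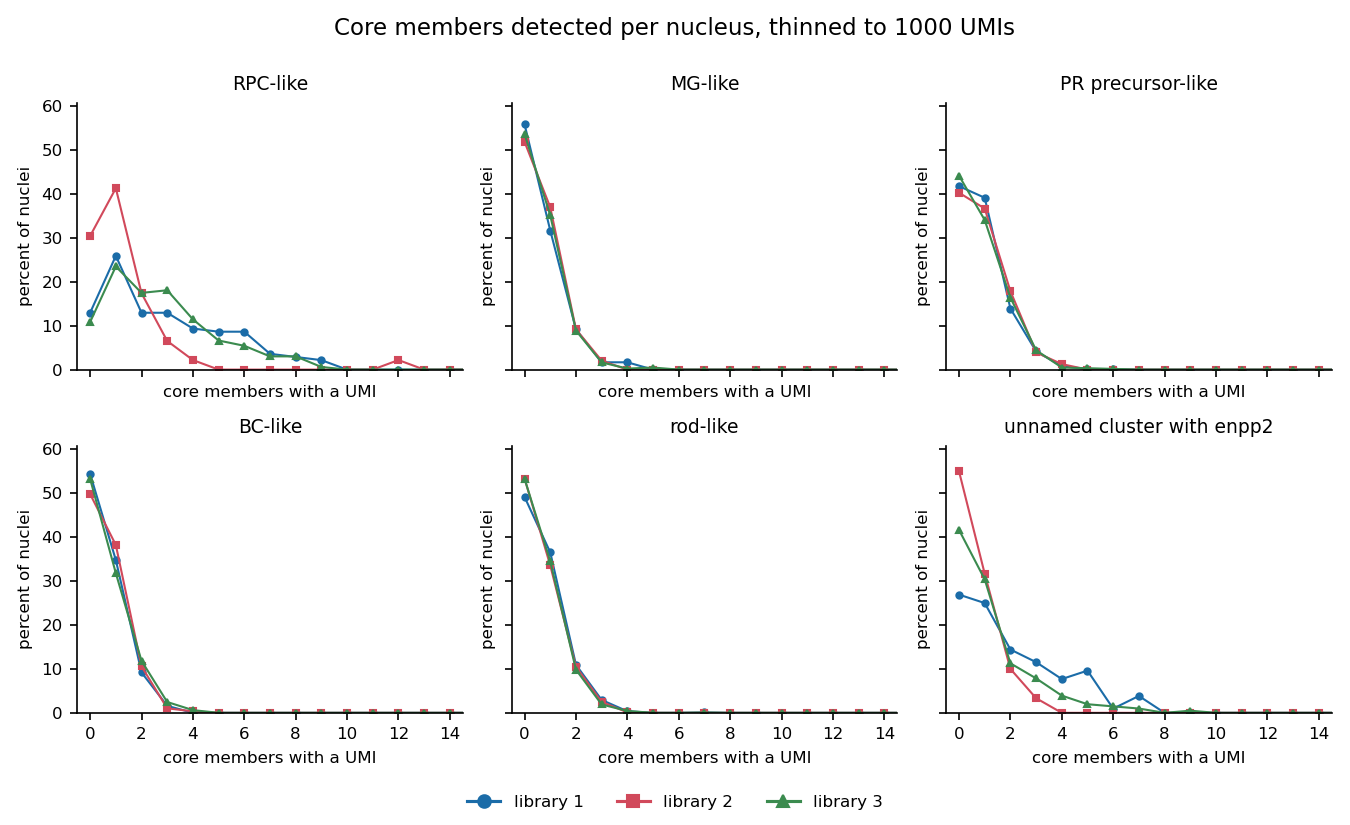
Percent of nuclei (vertical axis) by number of core members with a UMI (horizontal axis) after thinning to 1000 UMIs, with 1 line per library in 6 panels of nuclei. RPC-like nuclei of libraries 1 and 3 have a tail past 5 core members, which 25.9% and 18.7% of nuclei reach, and library 2 has 2.17%.

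An unnamed cluster had core sums between those of RPC-like and rod-like nuclei. It held 104, 79 and 280 nuclei of libraries 1 to 3, with enpp2 and pmela, a melanosome gene, among its leading genes, and had 8 genes of the RPC list raised without meeting the rule for a name. Core members summed to 2468, 717 and 1333 CPM in it, again with library 2 the lowest and there near the 665 CPM of rod-like nuclei. At 1000 UMIs it held 15 of the 56 nuclei of library 1 with 5 or more core members and 10 of the 52 of library 3, the RPC-like cluster holding 36 and 31. Single members of this cluster did not all follow the sum. pcna, with 251.5, 83.14 and 150.8 CPM, was above its RPC-like level in each library. top2a, with 296.6, 57.16 and 110.3 CPM, was below its RPC-like level in each library.

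No core member was called in MG-like nuclei. Of 53 tested, edgeR called 0 in either direction against all other nuclei, where 7.34% of all 17583 genes were called higher and 4.33% lower; 5 had an unadjusted p under 0.05, 4 of them lower, and DESeq2 called 0. The median log2 fold change of core members was -0.25 against -0.03 over all genes. In each of the 3 libraries 23 of the 53 core members (43.4%) were lower, against 27.4% of all genes tested. The other nuclei here include the RPC-like nuclei, where core members were high, which raises the reference. Relative to rod-like nuclei alone, the MG-like core sum had ratios of 0.903, 1.00 and 1.01 in libraries 1 to 3. Against all other nuclei pcna and cenpf were lower at edgeR adjusted p of 0.0215 and 0.0259. Both missed the fold threshold, with log2 fold changes of -0.94 and -0.84. pcna had 1.67%, 1.02% and 1.41% of MG-like nuclei with a UMI at 1000 UMIs, against the 1.69%, 1.82% and 2.704% of rod-like nuclei. The members that passed have other roles. Markers of other cell types were also present in MG-like nuclei, the GABAergic amacrine list at 4991, 2945 and 3186 CPM against 1239, 1575 and 1405 CPM in RPC-like nuclei, and the endothelium list at 715, 315 and 321 CPM against 139, 107 and 156 CPM, beside 2697, 4196 and 2271 CPM of the MG list. Their part in the MG-like values was not tested. cdc42ep4b, an effector of cdc42 (chromosome 18, 28435544 to 28463282), had 134, 63.8 and 62.7 CPM in MG-like nuclei of libraries 1 to 3 against 29.7, 18.2 and 19.7 CPM elsewhere. It was higher in each library without overlap, with a log2 fold change of 1.90 ± 0.19 and an edgeR adjusted p of 4e-06. plk2b, a stress and synapse related kinase in mammals (chromosome 3, 98134804 to 98139941), was lower, with 30.7, 8.38 and 20.7 CPM against 40.2, 38.3 and 57.2 CPM and an edgeR adjusted p of 0.00303. The other nuclei include horizontal cell-like nuclei, where plk2b had 163.9, 242.0 and 141.3 CPM. In rod-like nuclei it had 17.1, 10.1 and 12.3 CPM, below the MG-like values in libraries 1 and 3. MG-like nuclei were not tested against rod-like nuclei.

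In PR precursor-like nuclei few members were called. Against all other nuclei 4 of 74 tested members were called higher and 1 lower, where 4.04% and 10.3% of the 17977 genes tested were called, so the count of 4 is near the background share. ncapg2 had 32.7, 40.6 and 36.1 CPM in PR precursor-like nuclei of libraries 1 to 3 against 14.6, 16.1 and 14.1 CPM elsewhere. The values did not overlap, and the log2 fold change was 1.26 ± 0.17 with an edgeR adjusted p of 0.000323. ncapg (chromosome 3, 156425423 to 156537163) had 41.9, 98.9 and 64.6 CPM against 25.4, 37.5 and 29.8 CPM, with a log2 fold change of 1.06 ± 0.17. ncaph, the kleisin subunit of condensin I (chromosome 26, 1719159 to 1737669), had 7.21, 13.1 and 16.5 CPM against 4.85, 3.13 and 7.76 CPM, and mcm2 had 14.4, 11.1 and 11.4 CPM against 8.59, 3.44 and 5.47 CPM. The calls of ncapg, ncaph and mcm2 were lost without library 2, where 2 members were called higher. plk2b was the member called lower, with 24.4, 13.8 and 17.7 CPM against 43.0, 37.6 and 57.2 CPM. Against rod-like nuclei alone plk2b was not called, with a log2 fold change of 0.34 and an edgeR adjusted p of 0.48.

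Set directly against rod-like nuclei, PR precursor-like nuclei had 10 of 70 tested members higher and 1 lower, where 9.7% and 6.97% of the 15330 genes tested were called. The median log2 fold change was 0.48 for core members and 0.09 over all genes. ncapg2 had 5.88, 13.0 and 7.26 CPM in rod-like nuclei, below every PR precursor-like value, with a log2 fold change of 1.94 ± 0.29 and an edgeR adjusted p of 4.1e-06. cenpn, which reads the centromeric nucleosome (chromosome 9, 15840760 to 15865604), had 9.43, 7.20 and 10.8 CPM in PR precursor-like against 1.79, 1.22 and 3.15 CPM in rod-like nuclei. cenpl, its partner (chromosome 4, 120120265 to 120143103), had 2.77, 11.1 and 17.1 CPM against 1.02, 2.43 and 4.60 CPM, and the groups overlapped. mcm7 had 9.15, 3.27 and 10.1 CPM against 2.30, 1.22 and 2.66 CPM. gins1, a subunit of the GINS complex (chromosome 1, 186511366 to 186554564), went the other way, with 6.10, 9.82 and 4.43 CPM in PR precursor-like against 29.9, 16.6 and 11.1 CPM in rod-like nuclei, a log2 fold change of -1.72 ± 0.39 and an edgeR adjusted p of 0.000915. The core sum of PR precursor-like nuclei was 880, 979 and 942 CPM and that of near-empty droplets 953, 725 and 687 CPM, so in library 1 the droplets were higher. The part of free RNA in these small differences was not tested.

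BC-like nuclei had the lowest core sums of the classes above. Against all other nuclei 1 of 75 tested members was called higher and 0 lower by edgeR, where 4.26% and 2.82% of the 17739 genes tested were called; 14 were lower at an unadjusted p under 0.05, and DESeq2 called 0 higher and 0 lower. The median log2 fold change of core members was -0.43, against -0.03 over all genes. Of the 56 tested core members, 41 (73.2%) were lower in each of the 3 libraries, against 43.9% of all genes tested. The other nuclei here include the RPC-like nuclei, where core members were high, which raises the reference. Relative to rod-like nuclei alone, the BC-like core sum had ratios of 0.778, 0.920 and 0.958 in libraries 1 to 3. The member called was cdc25d, a cdc25-type gene (chromosome 16, 5941328 to 5964354), with 5.47, 2.03 and 3.93 CPM in BC-like nuclei against 0.558, 0.890 and 0.863 CPM, a log2 fold change of 2.46 ± 0.45 and an edgeR adjusted p of 0.0153. Its level was low in every library and DESeq2 did not call it. cdc25d passed the filter on low counts here only through its BC-like values, where it is high, so its call is no independent support. In the RPC-like, MG-like and PR precursor-like comparisons against all other nuclei it had too few counts to be tested.

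Some members were highest outside the progenitors. The unnamed clusters were left out of this ranking, among them the one where pcna exceeded its RPC-like level. By mean CPM over the 10 named classes with at least 20 nuclei in each library, 50 of the 57 core members and 5 of the 19 others were highest in RPC-like nuclei. Taken library by library, only 20 of the 57 and 1 of the 19 were highest there in all 3 libraries. The share of all genes that were highest in RPC-like nuclei is not given here. Of the members not highest there by mean CPM, cdc73 was highest in PR precursor-like nuclei with 580, 572 and 364 CPM, in each library. cdc5l, a splicing factor (chromosome 6, 114971689 to 115041258), had 165, 164 and 155 CPM in PR precursor-like and 143, 167 and 135 CPM in RPC-like nuclei, which overlap. plk2b was highest in cholinergic amacrine-like nuclei, with 233, 186 and 284 CPM against 28.3, 0 and 34.3 CPM in RPC-like nuclei. cdc42 (chromosome 16, 109233196 to 109265132) was highest in ganglion cell-like nuclei with 201, 110 and 123.2 CPM, and cdc37, a partner of the chaperone HSP90 (chromosome 25, 2926546 to 2957226), was highest there with 70.4, 123.2 and 162 CPM. cdc42bpb, a kinase bound by cdc42 (chromosome 2, 46563788 to 46765835), was highest in rod-like nuclei with 211, 156 and 120 CPM, overlapping with the 148, 107 and 154 CPM of RPC-like nuclei.

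Genes of the same processes that are not members also rose in RPC-like nuclei. Against all other nuclei edgeR called 26 of 37 tested genes of a replication list higher. It called 47 of 53 of a mitosis list and 7 of 18 of a regulator list higher, and 0 genes of these lists lower. Of all genes tested, 7.22% were called higher and 11% lower. hells, a chromatin remodeller of replicating cells, had 270, 22.8 and 217 CPM against 5.26, 3.73 and 5.12 CPM, and its library 2 value rests on 3 UMIs. kif23, a motor of cytokinesis, had 69.0, 30.4 and 64.7 CPM against 2.27, 1.13 and 1.35 CPM. mybl1, a MYB family factor, had 395, 251 and 208 CPM against 15.2, 14.3 and 13.0 CPM, and library 2 was not the lowest. In MG-like nuclei cdk6, a G1 kinase, was higher with 336, 328 and 196 CPM against 60.0, 60.0 and 52.5 CPM, as was cdkn1cb, a cycle inhibitor, with 374, 427 and 192 CPM against 60.0, 98.8 and 56.6 CPM. The cdk6 level was not particular to MG-like nuclei, since RPC-like nuclei had 393, 380 and 223 CPM. RPC-like against MG-like nuclei gave it a log2 fold change of 0.04 and an edgeR adjusted p of 0.97. For cdkn1cb RPC-like nuclei were lower, with 76.4, 198 and 95.2 CPM. In MG-like nuclei 3 regulators were higher, 2 replication and 1 mitosis gene lower, where 7.34% and 4.33% of all genes tested were called. Of all genes tested in PR precursor-like nuclei, 4.04% were called higher and 10.3% lower, and the lists gave small counts too. There 1 of 37 replication, 3 of 53 mitosis and 2 of 18 regulator genes were higher. Lower were 3, 2 and 2 genes of the same lists. Among them smc4, a condensin ATPase, was higher with 235, 198 and 174 CPM against 82.8, 64.9 and 74.4 CPM and a log2 fold change of 1.43 ± 0.15. hells was lower with 3.05, 1.96 and 3.80 CPM against 17.7, 4.14 and 9.31 CPM and a log2 fold change of -1.96 ± 0.36, as was mki67-l with 17.2, 3.93 and 11.4 CPM against 48.6, 10.4 and 21.6 CPM. The other nuclei here include the RPC-like nuclei. Set directly against rod-like nuclei, none of these 3 genes was called. Their log2 fold changes there were 0.95 for smc4, -0.07 for hells and -0.47 for mki67-l. smc4 was higher in each library with an edgeR adjusted p of 0.000512 and missed the fold threshold alone. In BC-like nuclei 1 replication gene was higher and 2 replication and 2 regulator genes were lower. Of all genes tested there, 4.26% were called higher and 2.82% lower. Among the lower genes was ccnd1, cyclin D1, with 6.57, 10.7 and 8.09 CPM against 36.0, 25.6 and 24.5 CPM. Here too the reference includes the RPC-like nuclei, where ccnd1 had 287, 479 and 329 CPM. In rod-like nuclei ccnd1 had 8.70, 4.46 and 8.71 CPM, near the BC-like values. BC-like nuclei were not tested against rod-like nuclei.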

How the data were processed

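Single nuclei of 1 frozen retina from each of 3 animals were captured with the 10x Genomics 3' v3.1 chemistry. The authors mapped the reads to build sScyCan1.1 with STAR 2.7.10a and deposited raw UMI counts per gene, introns included, for every barcode (73310348, 50691314 and 71366924 UMIs in libraries 1 to 3). Positions are those of the RefSeq annotation.

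Barcodes within the study's limits on UMIs and features and under 10% mitochondrial counts were kept. Doublets were called per library at a rate of 4% and removed. Nuclei were normalised with SCTransform, integrated over 2000 features and clustered at resolution 0.5 (Seurat 5.3.0), without the cell cycle features. A cluster took a "-like" name where at least 3 marker genes were raised and the list's mean log2 ratio reached 0.75, a minimum set after the clusters were seen. UMIs were added up within each class of a library and tested with edgeR 4.0.16, with the library as a block because classes of 1 library come from the same animal. DESeq2 1.42.0, other filters, limits, resolutions and normalisations were alternatives, and the test was checked on simulated data. There it called 38% of 2-fold and 97% of 4-fold changes for RPC-like nuclei. For PR precursor-like nuclei it called 39% and 95%, so changes near 2-fold were often missed. The simulated spread was below the fitted one, and changes were placed only in genes above a minimum expected count. Recovery may thus be lower for members of low level, which was not tested. Members were named as the 2 of highest level in RPC-like nuclei per role, up to 6 called members per comparison and direction, 4 fixed genes (pcna, top2a, mcm2 and plk1) and up to 6 that were highest elsewhere. The members and lists were chosen with earlier results of these data known. Intervals are exact at 95%.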

Additional observations from a re-analysis of the deposited data

Results flagged for a closer look

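Core members had counts in barcodes that the comparisons did not use. Barcodes above the upper limits held 1280, 671.3 and 698.1 CPM of core members in libraries 1 to 3, against 684.6, 664.7 and 653.7 CPM in rod-like nuclei. Called doublets held 795.4, 697.2 and 776.1 CPM. Of the removed clusters, the one without a name held 1308, 671.8 and 709.2 CPM, the epithelium-like cluster 926.8 CPM in library 1 and the erythroid-like cluster 1752 CPM in library 1. Each value is above that of the rod-like nuclei of its library.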

How the results depend on the processing

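Of the counts of called members and summed levels under all alternatives, 204 stayed within their limits and 28 moved. Members called lower in RPC-like nuclei were 1 in place of 0 with no filter, with no doublet removal and with log normalisation. In MG-like nuclei, leaving out 1 library in turn gave 1 to 2 members higher and 1 to 3 lower, and the lower count was 0 with no replicate block, 0 with no doublet removal, 2 at a mitochondrial limit of 5% and 2 with cell cycle genes kept. In PR precursor-like nuclei, leaving out 1 library gave 2 to 6 members higher and 1 to 2 lower; the higher count was 2 with no filter, no replicate block, the limits of library 1 or log normalisation, and the lower count 2 with names at a minimum of 1. In BC-like nuclei the higher count was 0 with DESeq2 and the lower count 1 with no filter. RPC-like against MG-like nuclei had 1 member lower with library 3 left out (0 to 1), with cell cycle genes kept and with log normalisation. RPC-like against PR precursor-like nuclei gave 21 to 37 higher members with 1 library left out. PR precursor-like against rod-like nuclei gave 5 higher with no replicate block and 6 with log normalisation, and 1 to 2 lower with 1 library left out. With no replicate block the count in RPC-like against all other nuclei was 33 in place of 42. Thinning took the mean share of nuclei with 5 or more core members from 18.4% to 0.156% in MG-like, from 3.92% to 0.244% in PR precursor-like and from 23.4% to 0% in BC-like nuclei. Among single members, the log2 fold change of e2f6 in RPC-like nuclei turned, at -0.0729 to 0.5157 with 1 library left out, as did that of cdc42, at -0.0478 to 0.2032 with 1 library left out, -0.0088 with no doublet removal and -0.0008 with cell cycle genes kept, none of them called. The causes were not tested. Library 2 has 51 RPC-like nuclei, where 3 UMIs are worth 22.8 CPM, which limits every value there.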

Other observations

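mki67-l, the proliferation marker, was higher in BC-like nuclei than in all other nuclei, with 120.4, 33.0 and 28.4 CPM in libraries 1 to 3 against 36.2, 6.0 and 19.7 CPM. At 1000 UMIs it was detected in 8.0%, 2.73% and 2.22% of BC-like nuclei and in 1.69%, 0.341% and 1.05% of rod-like nuclei. By the same measure top2a was detected in 1.60%, 1.02% and 1.11% of BC-like nuclei and in 2.13%, 0.569% and 1.05% of rod-like nuclei.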
